A study of Mus musculus with 157 samples.

Results

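The 100 gene bodies described here are those whose total RNA polymerase II (Pol II) signal was, by its mean over libraries, lowest at 48 h of retinoic acid (RA) relative to both 6 h and 72 h. For each gene the read count over its body was scaled to the library total (CPM, the common unit for counts set to 1 library size), averaged over the libraries of a time and taken as log2(CPM + 1). The score is the smaller of the 2 differences, 6 h minus 48 h and 72 h minus 48 h, and the 100 highest scores of 12401 scored genes are the members. They were chosen by these NTD gene-body values at 6, 48 and 72 h, which are therefore given as a description with no test. Scored genes had a mean of at least 10 CPM and 1 transcript per symbol, and symbols starting with Rpl, Rps or Hist were left out. The table holds 23870 symbols in all. All cells were wild-type mouse E14 embryonic stem cells. They grew in serum and leukaemia inhibitory factor (LIF) on gelatin and were given 1 µM RA for 2, 4, 6, 24, 48 or 72 h, or none (0 h). Crosslinked chromatin was precipitated with antibodies to the N-terminal domain of Pol II (NTD, total Pol II) and to Pol II phosphorylated at serine 2 (Ser2p) or serine 5 (Ser5p) of its C-terminal repeat. NTD was sequenced in 3 libraries at 6 h, 3 at 48 h and 2 at 72 h, and Ser2p and Ser5p likewise. Values per library follow replicate numbers, which were 1, 3 and 4 for the 6 h libraries, 1 to 3 for those of 48 h, with 1 and 3 for 72 h. Nothing in the labels tells whether replicate libraries stem from separate cultures, and the p-values cover only the variation among these libraries, which may be technical.

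Pol II is loaded at promoters, where serine 5 of its repeat is phosphorylated, and serine 2 phosphorylation builds up as it moves along the gene, so Ser2p over gene bodies follows elongating polymerase. Some members are hosts of small nucleolar RNAs (snoRNAs), which are cut from host introns and guide chemical modification of ribosomal RNA. Others are targets of ATF4, the transcription factor of the amino acid response, which binds a C/EBP-ATF site to turn on amino acid synthesis and aminoacyl-tRNA synthetase genes.

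Libraries of the same time differed, and this bears on the name given to the pattern. Read totals over gene bodies, in which transcripts of 1 gene share reads, were 11684907 to 25696364 for NTD and 18045745 to 28745658 for Ser2p. NTD reads at transcription start sites (TSS, 1 kb on either side) came to 8.20 percent of those over gene bodies in 72 h replicate 1 and 12.7 percent in 72 h replicate 3, and to 8.70, 14.4 and 9.31 percent in 48 h replicates 1, 2 and 3. At 6 h they came to 10.6, 12.2 and 12.3 percent in replicates 1, 3 and 4. The 50 genes with Hist symbols, left out of the rule, had a median NTD gene-body log2(CPM + 1) that departed from the gene means by -0.10, 0.60 and -0.22 at 48 h (replicates 1, 2 and 3) and by -0.35 and 0.87 at 72 h (replicates 1 and 3). So 48 h replicate 2 and 72 h replicate 3 stood above their partners in these measures too, and the part of this difference in the results below was not tested. Summed NTD gene-body signal of 10 embryonic stem cell markers, in FPKM (scaled to gene length and library total), was 51.9 to 64.0 at 6 h, 28.0 to 37.6 at 48 h and 25.5 in replicate 1 and 45.1 in replicate 3 at 72 h, and none of the 10 was at 0. The summed FPKM of 7 primitive endoderm markers was 4.60 to 5.16 at 6 h and 6.64 to 7.23 at 48 h. For 72 h the sum was 9.75 in replicate 1 and 7.92 in replicate 3. So it was higher at 48 h than at 6 h, where the members were lower, and its order between the 72 h libraries was the opposite of theirs; its part in the results was not tested. Sums for trophoblast, neural cells, fibroblasts and mesoderm ran between 3.48 and 11.7 FPKM over all NTD libraries. No marker of these lists or of primitive endoderm was at 0. The 11.7 FPKM was mesoderm in 72 h replicate 3, against 7.62 in 72 h replicate 1 and at most 8.84 elsewhere. Neural cells were also highest in 72 h replicate 3, 9.40 against 6.56 in replicate 1. Trophoblast came to 6.22 and 5.56 in 72 h replicates 3 and 1, and fibroblasts to 3.80 and 4.25. The part of these sums in the results was not tested. Chromatin came from many cells at once, so fewer cells with Pol II on a gene and less Pol II per cell cannot be told apart. CPM and FPKM are shares of a library total, so a lower value need not be a lower amount of Pol II.

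By its median, total Pol II over the members was lower in every 48 h library than at 6 h, and high again at 72 h in only 1 of the 2 libraries. The median of log2(CPM + 1) minus each gene's mean over all 17 libraries was 0.08, 0.32 and 0.22 at 6 h (replicates 1, 3 and 4) and -0.64, -0.13 and -0.57 at 48 h (replicates 1, 2 and 3). At 72 h it was -0.51 in replicate 1 and 0.46 in replicate 3. Low values were not confined to 48 h: in 4 h replicate 1 it was -0.145, below the -0.130 of 48 h replicate 2. Over all scored genes the same medians lay between -0.02 and 0.02 in these libraries. Genes with dense polymerase were less even. The scored genes of highest NTD FPKM, which may include members, held 0.85, 1.11 and 0.95 percent of scored-gene NTD counts at 6 h. They held 0.69, 1.10 and 0.74 percent at 48 h, and 0.71 and 1.42 percent at 72 h, in the same replicate order. The part of this difference in the members' values was not tested. All 3 libraries at 48 h lay below all 3 at 6 h for 85 of 100 members, against 16.5 percent of all transcripts, which follows from the rule that chose them. Both 72 h libraries lay above all 48 h libraries for 11 members, against 4.04 percent of all transcripts, and below them for none, against 7.85 percent. In 72 h replicate 1, 99 of 100 members lay below every 6 h library, against 45.5 percent of scored genes. In 72 h replicate 3, 100 of 100 lay above every 48 h library, against 34.3 percent of scored genes. Chosen without 72 h replicate 3, 24 of the 100 kept a score above 0 and 10 stayed among the top 100, and without 72 h replicate 1, 50 stayed. The genes are therefore described as bodies low at 48 h, with a return at 72 h seen in replicate 3.

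**Figure D1:**
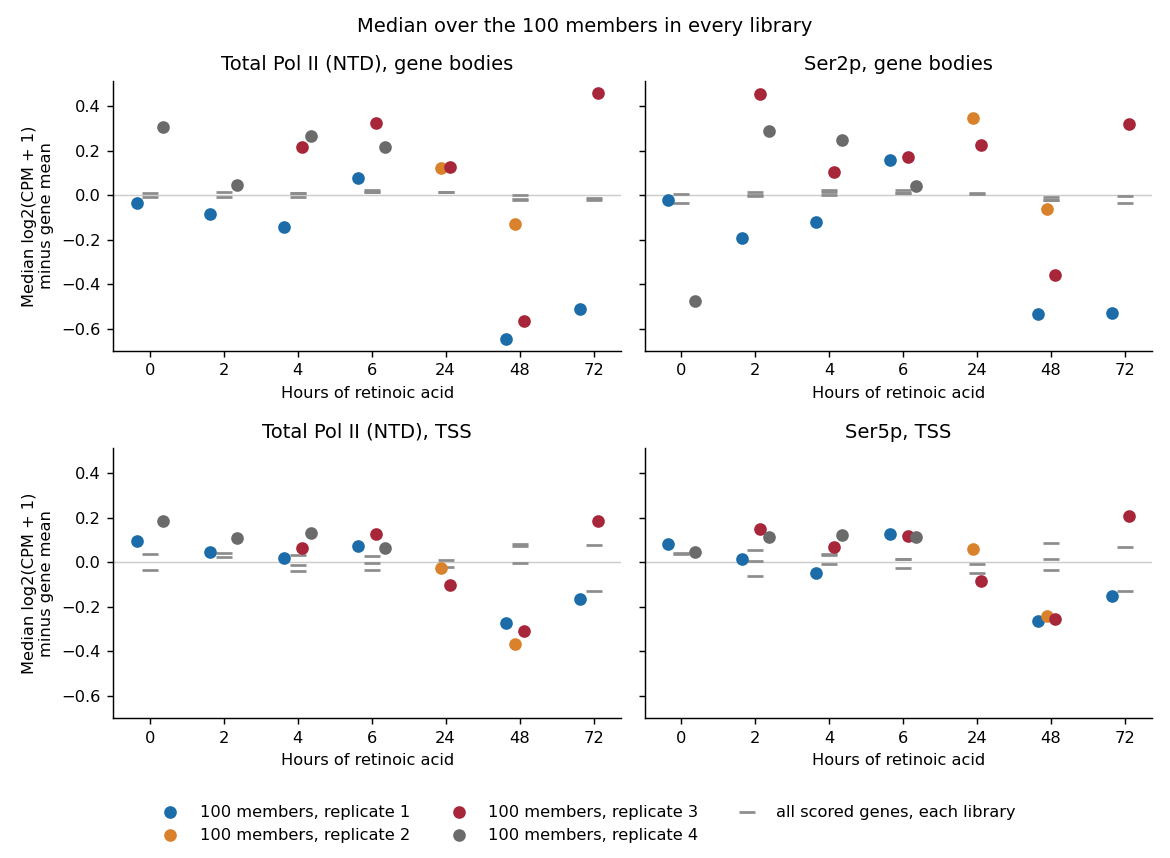
Median over the 100 members of log2(CPM + 1) minus the gene's mean over libraries, for each library by hours of RA, with 1 panel for each antibody and window. Points are libraries coloured by replicate number and grey dashes are the same median over all scored genes; at 48 h the members are low in every panel, and at 72 h total Pol II over bodies stands at -0.51 in replicate 1 and 0.46 in replicate 3.

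**Figure D2:**
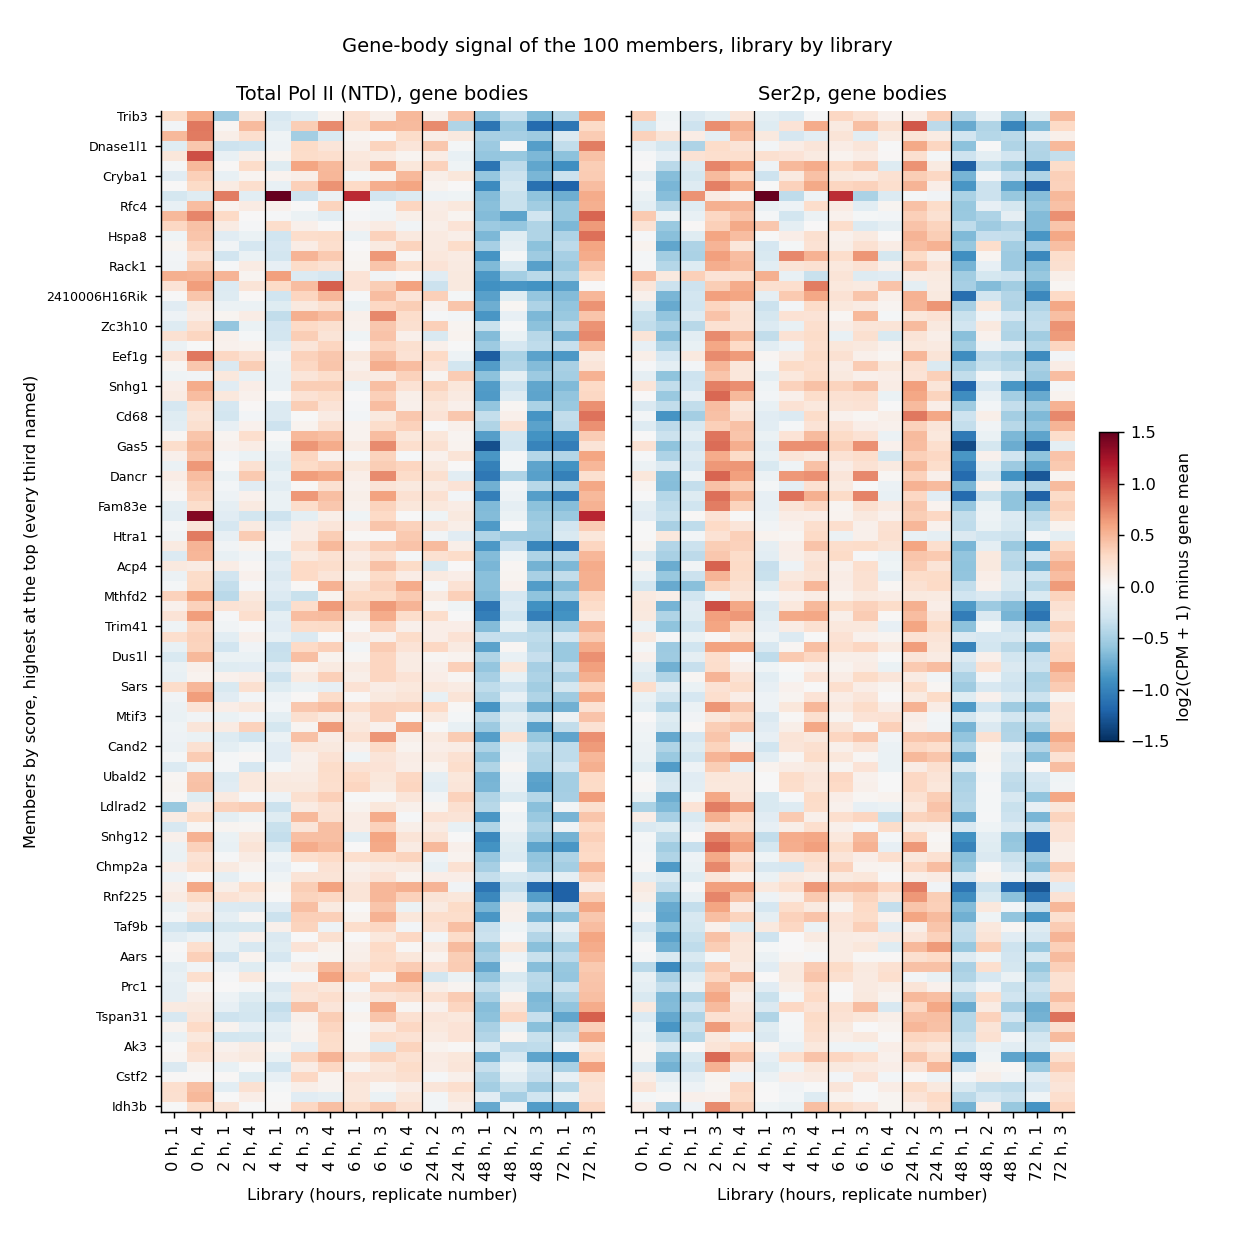
Log2(CPM + 1) minus the gene's mean for the 100 members (rows, by score) in each NTD and Ser2p library (columns, by hours and replicate number), with blue below and red above the mean. Columns of 48 h replicates 1 and 3 and 72 h replicate 1 are blue in both panels, as is 0 h replicate 4 in Ser2p, while 72 h replicate 3 is mostly red.

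Elongating polymerase, measured with an antibody that the rule did not use, was lower at 48 h than at 6 h too. The Ser2p and NTD libraries carry the same times and replicate numbers, and the labels do not say whether they share chromatin. At 6 h the median departure of Ser2p from the gene means was 0.16, 0.17 and 0.04, and at 48 h it was -0.53, -0.06 and -0.36. At 72 h it was -0.53 in replicate 1 but 0.32 in replicate 3, split like NTD. Without RA, at 0 h, it was -0.02 in replicate 1 and -0.48 in replicate 4, so a level as low as at 48 h was also seen in 1 untreated library. In replicate 1 it was -0.19 at 2 h and -0.12 at 4 h, both below the -0.06 of 48 h replicate 2. The fitted Ser2p log2 change, 48 h against 6 h, was negative for 100 of 100 members, with a median of -0.40 and a range of -1.23 to -0.01, while the median over all scored genes was 0.01. At an adjusted p under 0.05, 4 members fell in edgeR's quasi-likelihood test over 32123 transcripts, against 3.01 percent of all transcripts tested called lower. None rose, against 2.42 percent called higher. All 48 h libraries lay below all 6 h libraries for 63 members, against 16.8 percent of all transcripts, and above them for none, against 9.55 percent. At an unadjusted p under 0.05, 43 members were lower, against 10.6 percent of all transcripts. The authors' deposited table had 36 members lower at their adjusted p under 0.05, against 5.73 percent of the transcripts with such a p. Leaving out any 1 of the 6 h libraries, 48 h replicate 1 or 48 h replicate 3 left 0 members called by edgeR, and leaving out 48 h replicate 2 gave 7.

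The 4 members that fell in Ser2p were Lbhd1, Platr14, Cars and Gars, and the first 2 and Gars are named after their values were seen. Lbhd1, whose span holds the snoRNA gene Snora57, had 38.2, 38.7 and 35.0 CPM of Ser2p at 6 h, 12.6, 22 and 11.8 CPM at 48 h, and 10.9 and 24.7 CPM at 72 h. Its 48 h and 72 h libraries all lay below its 6 h libraries, and its log2 change, 48 h against 6 h, was -1.23 ± 0.30 (SE, edgeR adjusted p = 0.0224). Platr14, a long noncoding RNA gene of the pluripotency-associated transcript series, had 14.8, 18 and 15.3 CPM at 6 h, 9.21, 10.5 and 9.97 CPM at 48 h and 9.40 and 14.7 CPM at 72 h. Its change was -0.66 ± 0.17 (SE, edgeR adjusted p = 0.0318), and only 72 h replicate 3 came near the 6 h values. Cars, cysteinyl-tRNA synthetase, had 43.9, 38.5 and 41.9 CPM at 6 h, 32.7, 30.0 and 29.3 CPM at 48 h and 32.3 and 43.9 CPM at 72 h. Its change was -0.40 ± 0.11 (SE, edgeR adjusted p = 0.0442). Gars, glycyl-tRNA synthetase, fell by a similar amount, -0.33 ± 0.09 (SE, edgeR adjusted p = 0.0483), with 32.4, 31.4 and 31.7 CPM at 48 h against 44.1, 39.7 and 38.9 CPM at 6 h.

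From 48 h to 72 h no member passed the test in Ser2p. The fitted log2 change, 72 h against 48 h, was positive for 98 of 100 members with a median of 0.28, against 0.00 over all scored genes. None was called by edgeR or by DESeq2, 7 members had an unadjusted p under 0.05 and were higher, against 1.51 percent of all transcripts, and at the adjusted threshold 0 percent of all 32123 transcripts were called in either direction. The authors' deposited table called no member higher, against 0.0206 percent of its transcripts. Without 72 h replicate 3 the median turned to -0.23 and 12 members were positive, and without 72 h replicate 1 it was 0.68 and 99 were positive. Both 72 h libraries lay above all 48 h libraries for 4 members, against 4.83 percent of all transcripts, and below them for 1, against 6.01 percent. In replicate 1 alone, 96 members were still below every 6 h library of Ser2p, against 46.7 percent of scored genes.

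**Figure D3:**
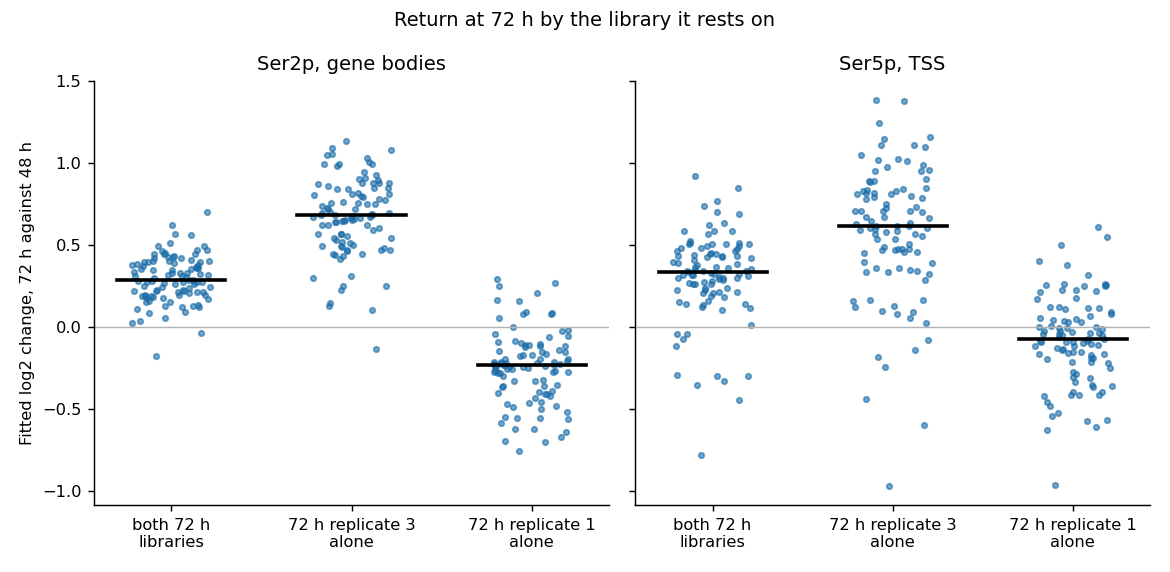
Fitted log2 change, 72 h against 48 h, of each member (points) with the median as a bar, for Ser2p over gene bodies and Ser5p at TSS. With both 72 h libraries the medians are 0.28 and 0.33, with replicate 3 alone they are 0.68 and 0.62, and with replicate 1 alone they are -0.23 and -0.08.

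At promoters the members were low in each of the 3 libraries at 48 h, by like amounts. Ser5p within 1 kb of the TSS departed from the gene means by a median of 0.13, 0.12 and 0.11 at 6 h, by -0.26, -0.24 and -0.26 at 48 h and by -0.15 and 0.21 at 72 h. The log2 change, 48 h against 6 h, was negative for 84 of the 99 members that passed the filter on low counts, with a median of -0.32, and 15 fell (edgeR adjusted p under 0.05), against 3.21 percent of all 32774 transcripts called lower. None rose, against 3.81 percent called higher. All 48 h libraries lay below all 6 h libraries for 47 members, against 12 percent of all transcripts, and above them for 4, against 12.7 percent. The authors' deposited table had 20 members lower, against 4.16 percent of transcripts with an adjusted p. From 48 h to 72 h the median change was 0.33 and no member was called, against 0.0122 percent of all transcripts called higher and 0.00305 percent called lower. At an unadjusted p under 0.05, 18 members were higher, against 3.24 percent of all transcripts, and DESeq2 called none. The authors' deposited table called none, against 1.13 percent of its 1688 transcripts with an adjusted p. Both 72 h libraries lay above all 48 h libraries for 19 members, against 7.15 percent of all transcripts, and below them for 6, against 9.98 percent. Without 72 h replicate 3 that median was -0.08, while over all scored genes it was -0.11, and without 72 h replicate 1 it was 0.62 and 7 members were called. Total Pol II at the same promoters lay at -0.27, -0.37 and -0.31 at 48 h and at -0.16 and 0.19 at 72 h, from the libraries that chose the members and so as a description.

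The 15 members whose promoter Ser5p fell were Gtsf1l, Zfp819, B3galt4, Trib3, Rnf225, Dancr, Ube2c, Itgb1bp2, Fam83e, Psat1, Zc3h10, Mthfd2, Snhg6, Snapc5 and Fbxo6. Those outside the naming rule are named because they were called. Gtsf1l had 68.0, 71.9 and 67.6 CPM at 6 h, 30.6, 26.9 and 35.8 CPM at 48 h and 38.3 and 36.4 CPM at 72 h. It stayed low in both 72 h libraries, with a change of -1.15 ± 0.19 at 48 h against 6 h (SE, edgeR adjusted p = 7.3e-05). Ube2c, the E2 ubiquitin-conjugating enzyme that works with the anaphase-promoting complex in mitosis, had 119, 121 and 120 CPM at 6 h, 47.2, 77.1 and 63.8 CPM at 48 h and 75.4 and 100 CPM at 72 h. At 72 h replicate 1 of Ube2c lay within the 48 h range and replicate 3 between the 48 h and 6 h values, and its change at 48 h against 6 h was -0.90 ± 0.22 (SE, edgeR adjusted p = 0.00706).

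Amino acid synthesis and ATF4 target genes included the members of rank 1 and 3, Trib3 and Psat1. Of the 24 genes of that list 19 were scored and 5 were members, namely Trib3, Psat1, Mthfd2, Gars and Aars. Over the 19, Ser2p fell at 48 h against 6 h in 2, against 3.01 percent of all transcripts, with a median log2 change of -0.15. Promoter Ser5p fell in 3, against 3.21 percent of all transcripts, with a median of -0.26. No gene of the list rose in either, against 2.42 percent of all transcripts in Ser2p and 3.81 percent in Ser5p. Trib3, a pseudokinase induced by ATF4, had the highest score, 0.72. Its NTD gene-body signal was 12.8, 11.5 and 15.5 CPM at 6 h, 6.80, 8.18 and 6.42 CPM at 48 h and 7.84 and 16.9 CPM at 72 h. Its promoter Ser5p was 59.1, 46.5 and 60.9 CPM at 6 h, 29.2, 21.5 and 33.5 CPM at 48 h and 35.3 and 64.9 CPM at 72 h. The 48 h and 6 h libraries did not overlap, and the Ser5p change was -0.99 ± 0.22 (SE, edgeR adjusted p = 0.00307), while 72 h replicate 1 remained near the 48 h values.

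Psat1, which makes phosphoserine on the path to serine, had 21.5, 20.9 and 25.3 CPM of NTD over its body at 6 h, 14.5, 14.4 and 14.1 CPM at 48 h and 17.7 and 27.5 CPM at 72 h. Here both 72 h libraries lay above all 48 h libraries, and the same held for its Ser2p, with 15.3 and 17.8 CPM at 72 h against 13.6, 12.3 and 12.5 CPM at 48 h. The Ser2p change from 48 h to 72 h was 0.37 ± 0.17 and was not called (SE, edgeR adjusted p = 1). Mthfd2, a mitochondrial folate enzyme, had 13.2, 14 and 13.7 CPM of Ser2p at 6 h, 10.1, 10.7 and 9.71 CPM at 48 h and 10.7 and 16.1 CPM at 72 h. Its promoter Ser5p fell at 48 h against 6 h by 0.73 on the log2 scale (SE 0.20, edgeR adjusted p = 0.0187), with 49.2, 50.5 and 39.6 CPM at 48 h against 77.3, 74.9 and 80.6 CPM at 6 h. Aminoacyl-tRNA synthetase genes, noticed after the values were seen, made up 5 members, Gars, Aars, Sars, Cars and Tars. Tars, just inside the limit of the ranking, had 12.0, 11.5 and 11.9 CPM of Ser2p at 6 h, 8.49, 9.53 and 9.03 CPM at 48 h and 11 and 14 CPM at 72 h. Its 3 times did not overlap between 48 h and either of the others, with a change of -0.36 ± 0.10 at 48 h against 6 h (SE, edgeR adjusted p = 0.0506) and 0.47 ± 0.11 at 72 h against 48 h (SE, edgeR adjusted p = 1).

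The promoters of 4 of these genes hold the core of the C/EBP-ATF site, and they are shown because no other member promoter in the RefSeq table (GRCm38.p6, the build of the files, mm10) holds it. The letters searched were TGATGNAA on both strands, which include TGATGCAA, over 250 bases before to 50 after the start, for the 84 members found there by symbol. The match is in capitals and, on the strand of the gene, reads as the reverse complement of those letters. They lie at chr2:152344036-152344210 (minus strand) for Trib3, chr6:55037851-55038020 (plus strand) for Gars, chr15:11399639-11399808 (minus strand) for Tars and chr8:111033712-111033861 (plus strand) for Aars. Each runs 5′ to 3′ along the gene past the RefSeq start used.
Trib3: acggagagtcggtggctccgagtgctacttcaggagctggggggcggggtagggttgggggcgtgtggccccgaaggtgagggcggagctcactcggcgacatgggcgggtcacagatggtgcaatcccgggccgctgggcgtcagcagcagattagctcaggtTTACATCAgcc
Gars: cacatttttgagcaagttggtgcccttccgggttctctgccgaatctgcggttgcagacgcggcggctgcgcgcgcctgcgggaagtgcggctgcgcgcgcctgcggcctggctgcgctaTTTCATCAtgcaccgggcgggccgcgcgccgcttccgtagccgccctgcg
Tars: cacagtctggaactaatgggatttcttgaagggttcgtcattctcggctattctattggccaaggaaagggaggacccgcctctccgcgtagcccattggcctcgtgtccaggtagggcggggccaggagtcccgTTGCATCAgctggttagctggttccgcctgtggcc
Aars: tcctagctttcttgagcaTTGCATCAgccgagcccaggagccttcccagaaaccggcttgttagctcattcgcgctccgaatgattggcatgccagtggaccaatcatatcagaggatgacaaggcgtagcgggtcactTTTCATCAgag
Counted from the RefSeq start, the first match began at 15 in Trib3, at -30 in Gars, at -15 in Tars and at -112 in Aars, which holds a second one at 10. The start used for Aars lies inside its RefSeq gene span, which begins at chr8:111027778. The share of genes with the letters was 4.76 percent of members, 2.98 percent of the 9657 scored genes in the table and 4.51 percent of all 27025 genes there. The match is a description of the letters and not of binding. Of the other letters searched, also on both strands, CCAAT stood in 41.7 percent of members and 41.9 percent of scored genes, GGGCGG in 65.5 and 65.8 percent, TATAAA in 11.9 and 9.68 percent, CACGTG in 10.7 and 11.3 percent and TGACGTCA in 4.76 and 3.34 percent.

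Hosts of snoRNAs were a group that the rule did not ask for. RefSeq places a snoRNA gene within the span of 20 of the 100 members, against 2.81 percent of the 12384 scored genes with coordinates. They are Rabggtb, Hspa8, Snhg5, Rack1, 2410006H16Rik, Top2a, Snhg1, Taf1d, Gas5, Dancr, Snhg3, Snhg6, Eef2, Sars, Eif4a2, Snhg17, Snhg12, 1110038B12Rik, Lbhd1 and Snx5. Of the 17 genes of the snoRNA host list 14 were scored and 8 were members. Over the 14 the median Ser2p log2 change at 48 h against 6 h was -0.75. None was called, against 3.01 percent of all transcripts called lower and 2.42 percent higher. Promoter Ser5p fell in 2 with a median of -0.50, against 3.21 percent of all transcripts. In the 20 hosts the NTD departure from the gene mean was -0.86, -0.19 and -0.68 at 48 h and -0.66 and 0.39 at 72 h, so they share the split between the 72 h libraries.

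Snhg1, a noncoding gene with 8 annotated snoRNAs in its span, had 34.4, 37.2 and 29.4 CPM of Ser2p at 6 h, 11.4, 22.6 and 14.4 CPM at 48 h and 13 and 26.8 CPM at 72 h. All its 48 h and 72 h libraries lay below its 6 h libraries, though the change of -1.03 ± 0.30 at 48 h against 6 h missed the threshold (SE, edgeR adjusted p = 0.0609). Gas5, growth arrest-specific 5, named here for its abundance after its values were seen, had 44.3, 56.2 and 36.1 CPM of Ser2p at 6 h, 13, 28.5 and 20.2 CPM at 48 h and 13.8 and 31.1 CPM at 72 h. It too stayed below its 6 h libraries at 72 h, in both replicates, with -1.11 ± 0.35 at 48 h against 6 h (SE, edgeR adjusted p = 0.0796). Dancr, host of Snora26, fell in promoter Ser5p, with 89.1, 106 and 116 CPM at 48 h against 194, 248 and 193 CPM at 6 h (log2 change -1.01 ± 0.24, SE, edgeR adjusted p = 0.00418). Rabggtb, which encodes the beta subunit of an enzyme that adds lipid anchors to Rab proteins and holds Snord45b and Snord45c, had 52.3, 67.4 and 51.8 CPM of NTD over its body at 6 h, 21.0, 34.8 and 26.5 CPM at 48 h and 23.9 and 59.9 CPM at 72 h. In Taf1d, a subunit of the selectivity factor of RNA polymerase I, Ser2p was 82.9, 84.2 and 66 CPM at 6 h, 36.6, 65.4 and 49.4 CPM at 48 h and 41.6 and 73.8 CPM at 72 h. The noncoding Snhg5 had 12.3, 16.6 and 8.28 CPM of Ser2p at 6 h, 4.87, 10.4 and 6.59 CPM at 48 h and 4.70 and 12.4 CPM at 72 h. In both hosts 72 h replicate 1 was near the lowest 48 h value and replicate 3 was within the 6 h range.

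Of 25 translation factors 24 were scored and 4 were members, Eef1g, Eef2, Eif4a2 and Eef1a1. Over the 24 no Ser2p call was made in either direction at 48 h against 6 h (median log2 change -0.23). Of all transcripts 3.01 percent were called lower and 2.42 percent higher. Eef2, which moves the ribosome along the mRNA, had 24.5, 25.8 and 22.4 CPM of Ser2p at 6 h, 9.73, 16.7 and 15.0 CPM at 48 h and 12.2 and 25.5 CPM at 72 h. Its promoter Ser5p did not show the fall, with 132, 162 and 181 CPM at 48 h against 132, 185 and 161 CPM at 6 h (log2 change 0.01 ± 0.23, SE, edgeR adjusted p = 0.994). Eef1g, a subunit of the elongation factor 1 complex, had 40.7, 36.6 and 35.4 CPM of Ser2p at 6 h, 17.6, 26.1 and 24.5 CPM at 48 h and 17.6 and 33.6 CPM at 72 h. Its Ser2p change was -0.69 ± 0.20 at 48 h against 6 h (SE, edgeR adjusted p = 0.0572), and 72 h replicate 1 stood at its lowest 48 h value. Npm1, the nucleolar chaperone nucleophosmin, was the 1 member among 21 scored nucleolar and ribosome biogenesis genes, and Hspa8, the constitutive heat shock cognate chaperone, was the 1 member among 21 scored heat shock genes. Hspa8 had 30.8, 32.5 and 29.7 CPM of Ser2p at 6 h, 18.3, 22.9 and 22.8 CPM at 48 h and 15.7 and 44.6 CPM at 72 h, so its 72 h libraries lay on opposite sides of every 6 h and 48 h library. Npm1 had 73.7, 76.1 and 52.6 CPM of Ser2p at 6 h, 33.9, 66.2 and 51.2 CPM at 48 h and 41.3 and 85.5 CPM at 72 h, so its times overlapped. Eif4a2, an RNA helicase of translation initiation, had 60.9, 55.5 and 50.4 CPM of Ser2p at 6 h, 32.1, 55.8 and 45.8 CPM at 48 h and 34.6 and 63.4 CPM at 72 h, and overlapped too.

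Transcripts of many translation genes begin with C and a run of pyrimidines. Shown with their upstream sequence are 3 members that hold such a run within 2 bases of the RefSeq start. Whether their transcripts begin there was not tested. A run of at least 5 C or T that begins with C within 2 bases of the RefSeq start was found in 16.7 percent of members, 11.9 percent of scored genes and 10.6 percent of all genes in the table. The run is in capitals, and the sequences lie at chr11:48800300-48800379 (plus strand), chr1:161035106-161035185 (plus strand) and chr9:78481705-78481784 (minus strand). The start used for Gas5 lies inside its RefSeq gene span, which begins at chr1:161034601.
Rack1: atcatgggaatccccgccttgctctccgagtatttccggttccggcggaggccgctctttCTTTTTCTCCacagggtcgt
Gas5: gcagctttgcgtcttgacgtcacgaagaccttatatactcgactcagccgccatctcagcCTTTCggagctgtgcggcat
Eef1a1: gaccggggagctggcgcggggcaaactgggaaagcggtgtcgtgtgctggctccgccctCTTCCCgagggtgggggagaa
Rack1 is a ribosome-bound scaffold protein and Eef1a1 delivers aminoacyl-tRNA to the ribosome. Eef1a1 had 77.4, 108 and 84.1 CPM of NTD over its body at 6 h, 40.3, 78.7 and 45.4 CPM at 48 h and 47.9 and 98.8 CPM at 72 h. Its 48 h replicate 2 overlapped the 6 h libraries, and 72 h replicate 1 was far below them.

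The rule left out ribosomal protein genes by symbol, but neighbours of such genes entered. A ribosomal protein gene lay within 5 kb of 14 members, against 0.573 percent of the scored genes with coordinates, and overlapped 2 of them, Wdr38 (Rpl35) and Cand2 (Rpl32). ChIP-seq reads carry no strand and a window can hold reads of a neighbour, so the signal of these members and that of the ribosomal protein gene cannot be told apart. The 75 ribosomal protein genes that reached the same level had median NTD departures of -0.86, -0.05 and -0.67 at 48 h and -0.74 and 0.27 at 72 h. B3galt4, a beta-1,3-galactosyltransferase gene beside Rps18, had 357, 355 and 342 CPM of promoter Ser5p at 6 h, 131, 169 and 140 CPM at 48 h and 112 and 313 CPM at 72 h. Its Ser5p change of -1.25 ± 0.27 at 48 h against 6 h was the lowest of all members (SE, edgeR adjusted p = 0.00229), and its 72 h libraries fell on opposite sides of the 48 h range. Dnase1l1, beside Rpl10, had 16.0, 19.3 and 17.4 CPM of NTD over its body at 6 h, 10.0, 15.1 and 8.13 CPM at 48 h and 11.5 and 26.4 CPM at 72 h, while its promoter Ser5p overlapped between times, with 17.9, 13.5 and 14.9 CPM at 48 h against 16.3, 14.7 and 15.8 CPM at 6 h.

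**Figure D4:**
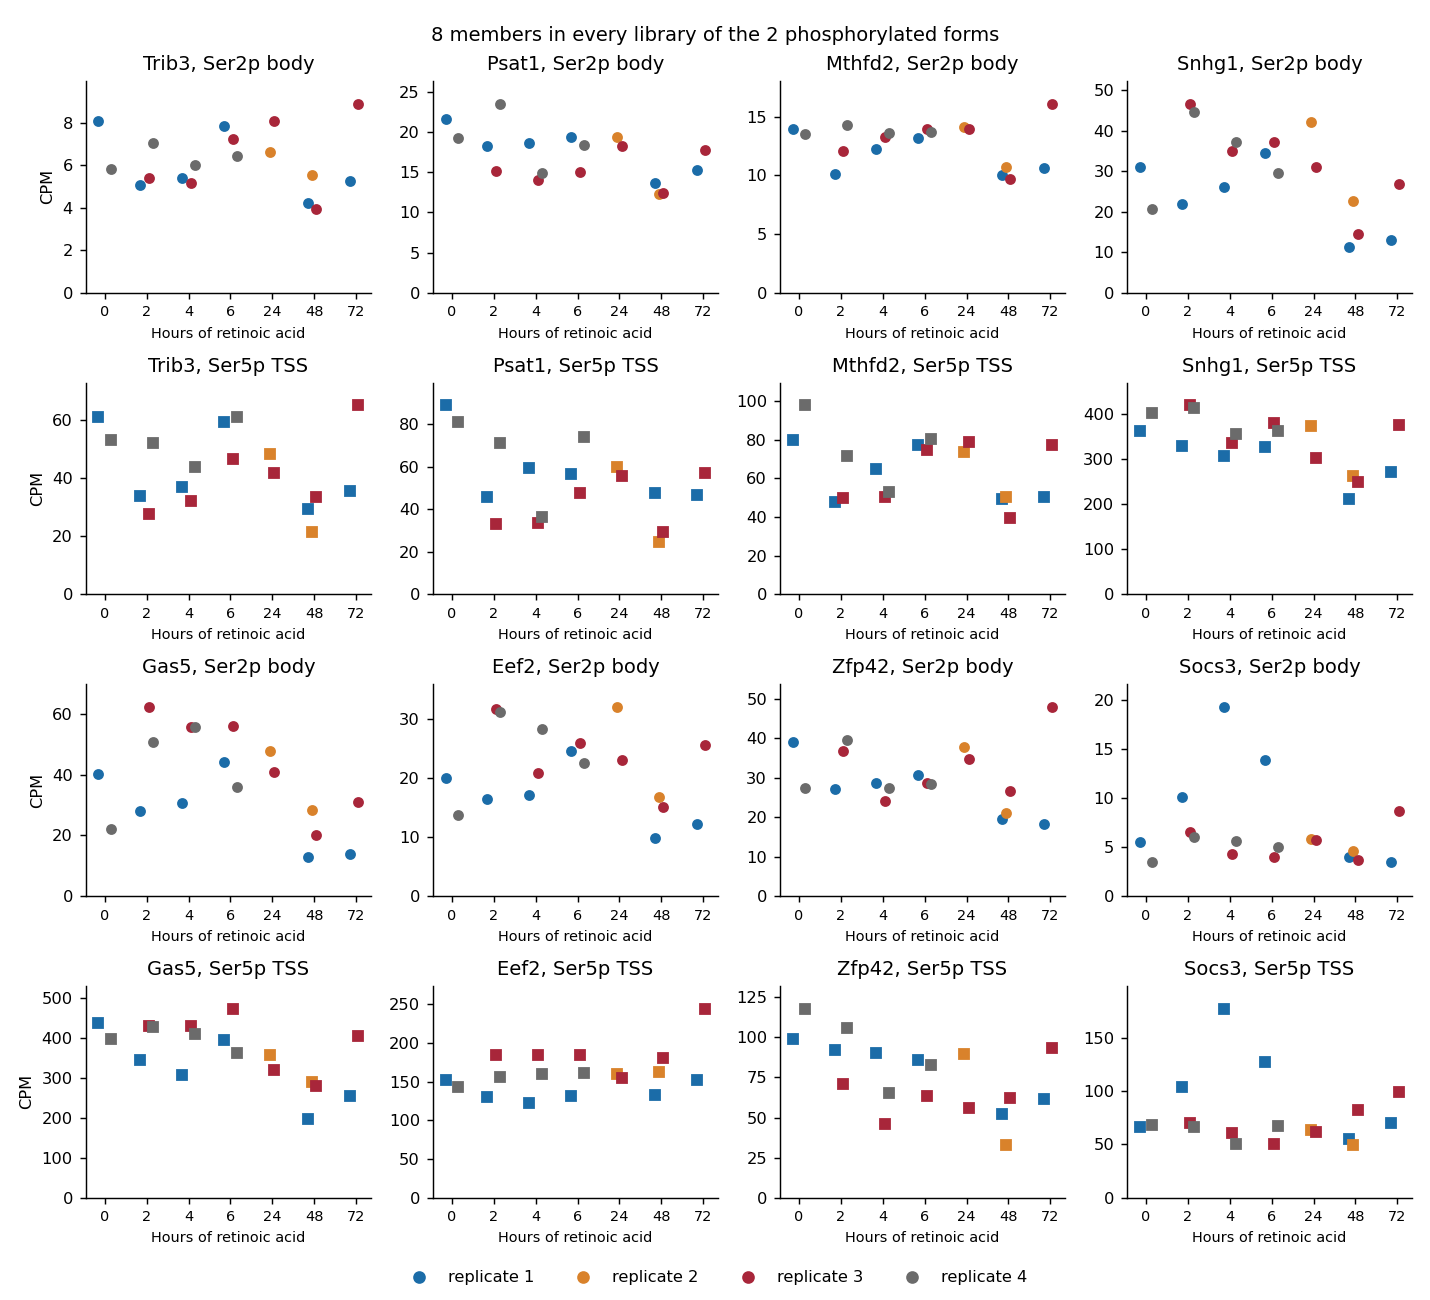
CPM of Ser2p over the gene body (circles) and of Ser5p at the TSS (squares) in every library for 8 members, by hours of RA and coloured by replicate number. The ATF4 targets and Gas5 are lower at 48 h than at 6 h in both forms, and Eef2 is so in Ser2p but not in Ser5p. In each panel 72 h replicate 3 lies above 72 h replicate 1.

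Of 18 scored genes of the pluripotency list 1 was a member, Zfp42 (Rex1, a marker of naive embryonic stem cells). Ser2p nevertheless fell in 7 of the 18 at 48 h against 6 h, against 3.01 percent of all transcripts. Zfp42 had 43.3, 42.0 and 46.5 CPM of NTD over its body at 6 h, 27.4, 24.9 and 35.3 CPM at 48 h and 29.2 and 81.1 CPM at 72 h. Its 72 h libraries lay on opposite sides of the others, with Ser2p at 18.3 CPM in replicate 1, below every 48 h library, and 47.9 CPM in replicate 3, above every 6 h library. Its Ser2p change at 48 h against 6 h was -0.35 ± 0.24 and its Ser5p change was -0.66 ± 0.23, neither called (SE, edgeR adjusted p = 0.456 and 0.0730). Zfp819, a zinc finger gene, had a promoter Ser5p of 31.2, 29.4 and 41.7 CPM at 6 h, 20.6, 12.2 and 12.1 CPM at 48 h and 18.8 and 19.1 CPM at 72 h. Its Ser5p fell at 48 h against 6 h by 1.23 on the log2 scale (SE 0.22, edgeR adjusted p = 0.00019) and stayed low in both 72 h libraries. Its Ser2p was lower still at 72 h, with 5.90 and 6.38 CPM at 72 h against 6.63, 7.52 and 6.75 CPM at 48 h, which makes it 1 of the 2 members with a negative Ser2p change from 48 h to 72 h.

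Socs3, the feedback inhibitor of LIF and STAT3 signalling, had 32.9, 11.9 and 12.5 CPM of NTD over its body at 6 h (replicates 1, 3 and 4), 8.92, 11.4 and 9.24 CPM at 48 h and 8.38 and 22 CPM at 72 h. The 6 h mean was set by replicate 1, which was also high at 2 h and 4 h with 25.5 and 43.9 CPM, and the Ser2p change at 48 h against 6 h was -0.11 without that library and -0.86 with it, called in neither case (edgeR adjusted p = 0.947 and 0.423). Rab26, a small GTPase of secretory vesicles, had 16.2, 19.2 and 19.0 CPM of NTD at 6 h, 5.74, 8.76 and 5.48 CPM at 48 h and 5.82 and 16.6 CPM at 72 h, while its promoter Ser5p was 20.6, 19.4 and 18.1 CPM at 48 h against 28.4, 21.5 and 22.5 CPM at 6 h. Rfc4, a subunit of the clamp loader of DNA replication, overlaps Eif4a2, and had 60.8, 58.8 and 75.8 CPM of NTD at 6 h, 38.9, 47.9 and 41.9 CPM at 48 h and 40.5 and 88.1 CPM at 72 h. Cryba1, a lens crystallin gene, had 17.9, 18.8 and 26.0 CPM of NTD at 6 h, 11.9, 14.4 and 11 CPM at 48 h and 14.4 and 24.0 CPM at 72 h.

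Members were short genes with dense polymerase. Their median gene length was 6894 bp (quartiles 3885 and 14923), against 38266 bp (20450 and 81642) over the scored genes with coordinates, and their median NTD gene-body level was 5.54 FPKM against 1.01 FPKM. Median CPM was close, 28.6 against 27.1. Because FPKM is scaled to gene length, the higher FPKM is not a trait separate from the shorter length. Of the 100 members 14 were not protein-coding, against 6.69 percent of scored genes. Overlapping spans joined Rfc4 with Eif4a2, Ggcx with Mat2a, Mtif3 with Gtf3a and Prc1 with Rccd1, so these pairs share reads and are not separate observations. Rack1 lay 162 bp from Trim41 without overlap and may share reads with it. Ubald2 and the pseudogene Gm7367, on chromosomes 11 and 7, had near-equal NTD means. These were 16.6 and 16.1 CPM at 6 h, 9.46 and 9.13 CPM at 48 h and 13.2 and 12.7 CPM at 72 h. Whether Ubald2 and Gm7367 share reads was not tested, so they may not be separate observations. The last genes inside the limit, Cars, Tars and Idh3b, had scores of 0.3801, 0.3796 and 0.3788, and the first outside it, 5430416N02Rik, Lifr and Slc1a4, had scores of 0.3775, 0.3741 and 0.3735. Idh3b, a subunit of mitochondrial isocitrate dehydrogenase, had 42.3, 45.7 and 41.2 CPM of NTD at 6 h, 20.1, 33.1 and 19.0 CPM at 48 h and 19.6 and 43.6 CPM at 72 h.

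**Figure D5:**
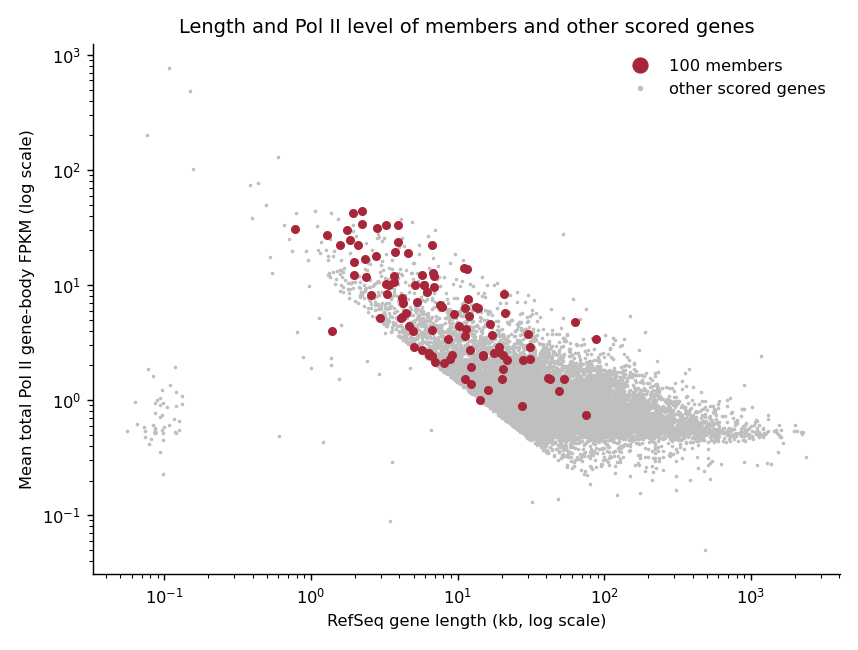
Mean total Pol II over the gene body in FPKM against RefSeq gene length in kb, both on log scales, for the 100 members (red) and the other scored genes (grey). The members sit at the short and dense side, with medians of 6894 bp and 5.54 FPKM.

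At 24 h against 0 h, a contrast the rule did not use, NTD over the members' bodies had a median log2 change of -0.04, with 57 negative and 43 positive, and edgeR called none in either direction, against 0.27 percent of all 31843 transcripts, or 0.261 percent higher and 0.00942 percent lower. DESeq2 called none, and 4 members had an unadjusted p under 0.05, against 13.2 percent of all transcripts. The median was 0.18 without 0 h replicate 4 and -0.23 without 0 h replicate 1, so its sign depends on which of the 0 h libraries is used. Lists with no member included glycolysis and the immediate early genes. At 48 h against 6 h, promoter Ser5p fell in 5 of 20 scored glycolysis genes, against 3.21 percent of all transcripts. Ser2p rose in 10 of 15 immediate early genes, against 2.42 percent of all transcripts.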

How the data were processed

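Groups, antibodies and replicate numbers came from the labels, and 53 of the 157 labelled samples have a column in the 4 tables used; the others were not analysed here. The authors deposited raw read counts per RefSeq transcript with a normalized signal (count times 1 factor per library), FPKM, log2 fold changes and adjusted p-values per the file headers. Per the submitters' processing notes Bowtie2, SAMtools, MACS2, DESeq2, mm10 and dm6 were used, with versions not given in the sources used here. A further 14 deposited columns of group means were not used. Transcripts without a symbol held 0.0168 percent of NTD gene-body counts.

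Raw counts went into edgeR 4.0.16 (quasi-likelihood test, TMM scaling, filterByExpr, Benjamini-Hochberg) in R 4.3.3, with all times of an antibody in 1 fit and no replicate block; the scripts were tested on simulated data. Alternatives were DESeq2 1.42.0, other scalings, no filter, the replicate block, each library left out and other member rules. CPM and medians were computed in Python 3.11.15 with pandas 2.3.3, and motifs were searched there. RefSeq coordinates matched 98 members by accession and 2 by symbol.

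Members and gene lists were chosen with earlier results of these data known. The genes described are the 10 highest scores, up to 3 members per list by score and the 3 on each side of the limit; a further part of the rule, members called in Ser2p in both directions, named none. Other genes are named because they were called or as said.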

Additional observations from a re-analysis of the deposited data

How the results depend on the processing

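Of the 100 members, 4 fell in Ser2p at 48 h against 6 h, and this number became 9 with column totals, 2 with the authors' scale factors, 12 with DESeq2 and 34 with the replicate block, and ranged from 0 to 7 when 1 library was left out; it was 2 percent of the top 50 and 8 percent of the top 200 by score. The 15 members that fell in Ser5p became 28 with column totals, 5 with the authors' scale factors and 32 with the replicate block, and ranged from 7 to 14 with 1 library left out. At 72 h against 48 h, calls ranged from 0 to 1 in Ser2p and from 0 to 7 in Ser5p with 1 library left out, the lone 72 h library then being assumed to vary like the others, and were 0 with the replicate block. Membership kept 66 of 100 at a mean of at least 20 CPM and 10 to 94 with 1 library left out. The cause of these shifts was not tested. Not every pair of same-numbered libraries correlated above 0.1 in its deviations, so the numbers were not taken as pairing: 27 of 32 did in NTD bodies (median r 0.39, against -0.20 and 28 of 91 for other numbers) and 20 of 37 in Ser2p, and 10 of 17 and 10 of 18 libraries matched their own number best. In NTD bodies, each same-numbered pair that did not exceed 0.1 held 48 h replicate 2 or 3. Replicates 3 of 48 h and 72 h gave r -0.63, while 48 h replicate 2 and 72 h replicate 3 gave 0.83. Whether this comes from the numbering or from the 48 h libraries themselves was not tested. With the block, whose 0 h and 24 h libraries share no number, the median NTD change at 24 h against 0 h was -0.39 with 87 of 100 negative and none called.

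Without 72 h replicate 3, and in Eif4a2 (-0.06) and Snhg5 (-0.01) also without 48 h replicate 1, the Ser2p change from 48 h to 72 h turned sign in 16 genes chosen by the naming rule; of all 100 members 12 stayed positive without 72 h replicate 3. The ranges with 1 library left out are those of Dnase1l1 (-0.10 to 0.88), Rabggtb (-0.43 to 1.00), Cryba1 (-0.12 to 0.72), B3galt4 (-0.63 to 1.05), Socs3 (-0.23 to 1.08), Rfc4 (-0.26 to 0.76), Hspa8 (-0.43 to 1.05), Eef1g (-0.36 to 0.55), Eef2 (-0.17 to 0.88), Eif4a2 (-0.36 to 0.50), Npm1 (-0.28 to 0.75), Snhg5 (-0.63 to 0.75), Snhg1 (-0.30 to 0.72), Taf1d (-0.27 to 0.54), Zfp42 (-0.28 to 1.09) and Idh3b (-0.55 to 0.70).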
